A study of Homo sapiens with 6 samples.

Results

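The antioxidant and NADPH genes that the transcription factor NRF2 is known to control were followed in PANC-1 cells, an established human pancreatic cancer line, after treatment with anlotinib. Their probe sets were all those of the deposited table whose array annotation gave exactly 1 gene symbol that stood in a list of 31 genes for glutathione, thioredoxin, NADPH and reductase functions and for the regulators of NRF2. This rule found 55 probe sets of 26 genes among 35858 tested probe sets annotated to 1 gene, which covered 15253 genes. Anlotinib is a small molecule that inhibits several receptor tyrosine kinases. The 3 anlotinib samples received 5.535 μM of it for 48 h, and the 3 DMSO samples received its solvent for the same time. All 6 samples were cultured in the same serum-containing medium, and total RNA of each was hybridized to 1 Affymetrix array. A probe set is a group of oligonucleotides on it that read 1 or more transcripts, mostly near the 3′ end. Whether the 3 arrays of each treatment came from different cultures is not given, so p-values measure only the spread between these samples, which may be technical.

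NRF2, the product of NFE2L2, is held in the cytoplasm and passed to degradation by KEAP1, whose cysteines react with oxidants and electrophiles. When KEAP1 is modified, NRF2 accumulates, pairs with a small MAF protein such as MAFG on antioxidant response elements and competes there with the repressor BACH1. Its target genes make and recycle glutathione and thioredoxin, supply the NADPH that both systems consume, and reduce or conjugate quinones, aldehydes and xenobiotics.

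Each value is a log2 signal made with RMA, so 1 unit is a 2-fold difference, and every log2 fold change is anlotinib minus DMSO with n = 3 arrays in each group. Signals of different probe sets cannot be set against each other, so only differences are compared between genes. A probe set was called, and is said to have risen or fallen, if it differed 2-fold or more and its FDR in limma was under 0.05. Where a gene has several probe sets, its values are those of the brightest by mean signal over all arrays, unless stated otherwise. The normalization sets the arrays to a common distribution, so a fold change is relative to all other transcripts, and in these bulk samples fewer cells that express a gene and less RNA per cell cannot be told apart. The array medians lay between 7.71 and 7.77, the Pearson r across probe sets was 0.998 within either group and 0.977 to 0.978 between the groups, and the SD of the 55 probe sets within a group had a median of 0.05 and a highest value of 0.24. The keratins KRT8, KRT18 and KRT19 of ductal epithelium had mean signals of 12.90 to 14.02 with anlotinib and 13.48 to 14.59 in DMSO, and KRT7 had 8.27 with anlotinib and 8.53 in DMSO. All 4 were lower at an FDR under 0.05, by −0.75 to −0.26, with 0 of them called by limma at the brightest probe set and 1 dimmer probe set of KRT8 called lower. SOX9, a ductal transcription factor, had 11.76 with anlotinib and 11.80 in DMSO (adjusted p = 0.369, limma) and was higher by 0.12 and 0.25 at dimmer probe sets, and the part of these shifts in the results was not tested. Among 4 measured of 6 leukocyte markers, CD68, which is also a lysosomal protein, rose (1.96). The linear signals of the 4, summed and then put on the log2 scale, gave 9.87 to 9.99 with anlotinib and 8.53 to 8.56 in DMSO. CD68 weighs most in this sum, with mean signals of 9.68 with anlotinib and 7.72 in DMSO. CD14, CD3E and ITGAM had mean signals of 5.31 to 6.04 with anlotinib and 4.67 to 6.27 in DMSO. ITGAM was higher by 0.63 (adjusted p = 0.00396, limma) at its brightest probe set and by 0.01 (adjusted p = 0.926, limma) at the other. CD14 (−0.23) and CD3E (−0.14) did not pass the FDR (adjusted p = 0.0743 and 0.0978, limma). The part of such cells in the results was not tested. Of the 6 endothelial, 3 fibroblast and 3 acinar markers measured, 0 were called by limma, and PECAM1, TEK, COL1A1, COL3A1 and PDGFRB were lower at an FDR under 0.05.

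Few of these genes differed beyond 2-fold between anlotinib and DMSO. OSGIN1, SRXN1 and GCLC rose, at 6 probe sets, and 0 probe sets were called lower by limma. At an unadjusted p under 0.05, 31 of the 55 probe sets were higher and 10 lower, against 30% and 31.1% of all tested probe sets. Of all tested probe sets, 2.33% were called higher and 1.77% lower. Of all genes, 3.47% had a probe set called higher and 2.58% one called lower, and at the brightest probe set 2.1% were higher and 1.91% lower. GCLM and TXNRD1 lay just under the 2-fold limit, while NQO1, often used as the reporter gene of NRF2, was slightly lower. At an FDR under 0.05 without a fold limit, 30 of the 55 probe sets were higher and 8 lower, against 28.3% and 28.6% of all tested probe sets. Several of these probe sets read the same gene. At the brightest probe set, 11 of the 26 genes were higher and 4 lower at this FDR, against 25.4% and 29.7% of all genes. On 30 probe sets every anlotinib array lay above every DMSO array, against 31.5% of all, and on 10 every one lay below, against 31.9%. The median log2 fold change of the 26 genes was 0.09, beside −0.04 over all genes. Of the 26 genes, 5 lay above 0.71, the 95th percentile of all genes, 0 lay below −0.72, the 5th percentile, and 11 lay within the middle 50%, between −0.23 and 0.16.

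**Figure D1:**
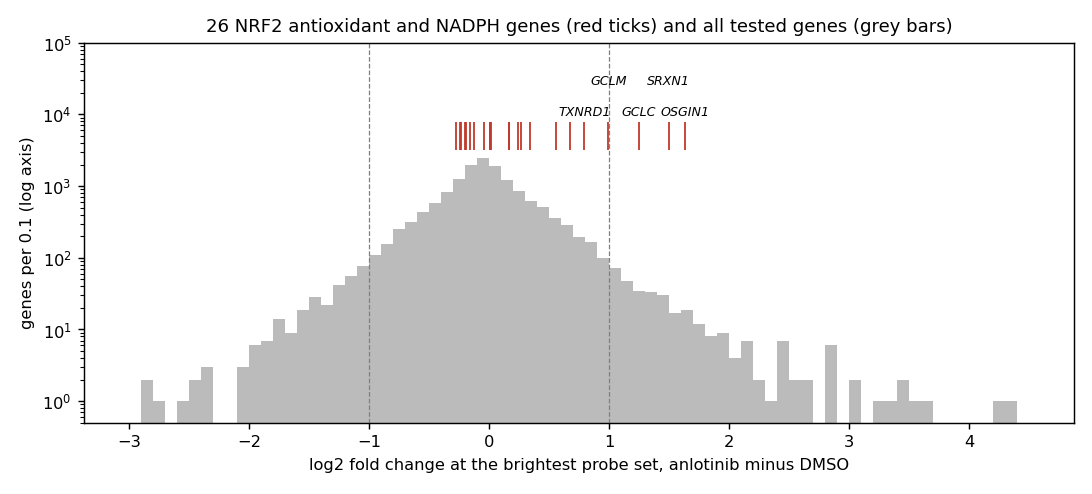
Log2 fold changes at the brightest probe set (horizontal axis, anlotinib minus DMSO, dashed lines at the 2-fold limits) of the 26 genes as red ticks above a histogram of all 15253 tested genes (vertical axis, genes per bin of 0.1, log scale). OSGIN1 at 1.63, SRXN1 at 1.49 and GCLC at 1.25 lie beyond the upper limit, and the lowest tick is that of GSTP1 at −0.28.

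NFE2L2 itself had signals of 12.23, 12.28 and 12.28 on the anlotinib arrays and 12.13, 12.31 and 12.35 on the DMSO arrays. The groups overlapped, and the log2 fold change was 0.00 with a 95% confidence interval of −0.15 to 0.15 (adjusted p = 0.983, limma). Its other probe set gave −0.01, in an interval of −0.10 to 0.08. KEAP1, the adaptor that hands NRF2 to a ubiquitin ligase, had 10.03, 9.95 and 10.11 with anlotinib and 9.74, 9.76 and 9.82 in DMSO. Every anlotinib array was higher, by 0.26 in the mean (SE 0.05, adjusted p = 0.00424, limma), which is below the 2-fold limit. MAFG, a small partner of NRF2, showed the largest difference among the regulators. Its signals were 10.57, 10.54 and 10.61 with anlotinib and 10.00, 9.89 and 9.80 in DMSO, a difference of 0.67 (SE 0.06, adjusted p = 6.32e-05, limma) without overlap of the groups. The deposited table holds these 6 values under 2 probe set names, so they are 1 measurement, and the remaining probe sets of MAFG gave 0.29 and 0.33. Counted once, 29 of 54 distinct probe sets of the 26 genes were higher at an FDR under 0.05. BACH1, the repressor, was read by 1 dim probe set at 5.58, 5.57 and 5.55 with anlotinib and 5.64, 5.55 and 5.49 in DMSO, with a difference of 0.00 (95% confidence interval −0.11 to 0.12). A pair of further probe sets is annotated to BACH1 together with another gene and was not used.

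Both subunits of glutamate-cysteine ligase, which limits glutathione synthesis, were higher with anlotinib. GCLC, the catalytic subunit, had signals of 9.41, 9.36 and 9.51 on the anlotinib arrays and 8.14, 8.31 and 8.09 on the DMSO arrays. The lowest anlotinib array stood more than 1 unit above the highest DMSO array, and the difference was 1.25 (SE 0.07, adjusted p = 1.04e-05, limma). Of the dimmer probe sets of GCLC, a pair gave 1.19 and 1.20 and was called, and the remaining one gave 0.65 (adjusted p = 6.05e-05, limma) and was not. The mean signals of that one were 9.09 with anlotinib and 8.45 in DMSO, beside 9.43 and 8.18 for the brightest. Ranked by the DMSO arrays alone it would be the brightest, and GCLC would have 0.65 and not be called there. GCLM, the modifier subunit, had 10.97, 11.01 and 11.08 with anlotinib and 9.97, 10.08 and 10.03 in DMSO. All its anlotinib arrays were higher, by a log2 value of 0.99 (SE 0.05, adjusted p = 5.93e-06, limma), or 1.99-fold, which misses the limit. Without anlotinib 1 or without DMSO 2 it was 1.02 and called.

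The other glutathione genes moved little or the other way. GSR, which regenerates reduced glutathione with NADPH, had log2 fold changes of 0.16 and 0.22 at its 2 probe sets, both at an FDR under 0.05. GSTP1, the transferase that conjugates electrophiles to glutathione, had 12.36, 12.41 and 12.44 with anlotinib and 12.66, 12.68 and 12.72 in DMSO. All anlotinib arrays were lower, by −0.28 in the mean (SE 0.04, adjusted p = 9.23e-04, limma), and a dim probe set gave −0.31. GPX2, a glutathione peroxidase of epithelia, was dim on all arrays, at 5.65 to 5.89 with anlotinib and 5.61 to 5.80 in DMSO, and the groups overlapped (0.01, 95% confidence interval −0.19 to 0.20).

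All 4 genes of the thioredoxin group were higher at all of their 10 probe sets at an FDR under 0.05, a limit that 28.3% of all probe sets and 25.4% of all genes passed as higher, and 1 of them, SRXN1, rose beyond 2-fold. Sulfiredoxin, the product of SRXN1, restores overoxidized peroxiredoxins. Its signals were 11.29, 11.33 and 11.40 with anlotinib and 9.83, 9.88 and 9.83 in DMSO. The groups were widely separated, by 1.49 on the log2 scale (SE 0.04, adjusted p = 1.13e-06, limma) or 2.82-fold. TXNRD1, the cytosolic thioredoxin reductase that passes electrons from NADPH to thioredoxin, had 13.33, 13.33 and 13.25 with anlotinib and 12.45, 12.52 and 12.56 in DMSO. The log2 fold change was 0.79 (SE 0.05, adjusted p = 1.23e-05, limma), and the dimmer probe sets gave 0.92 and 0.94, so that 0 of the 3 were called and all pointed the same way. TXN, thioredoxin itself, differed less, at 13.34, 13.41 and 13.39 with anlotinib and 13.00, 13.15 and 13.26 in DMSO, a difference of 0.24 (SE 0.07), in a range of 0.24 to 0.43 over its 5 probe sets. PRDX1, a peroxiredoxin that thioredoxin reduces, had 14.02, 14.03 and 14.05 with anlotinib and 13.70, 13.71 and 13.67 in DMSO, a difference of 0.34 (SE 0.04). The highest value on any array was 15.16, and whether differences are compressed at such bright signals was not tested.

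**Figure D2:**
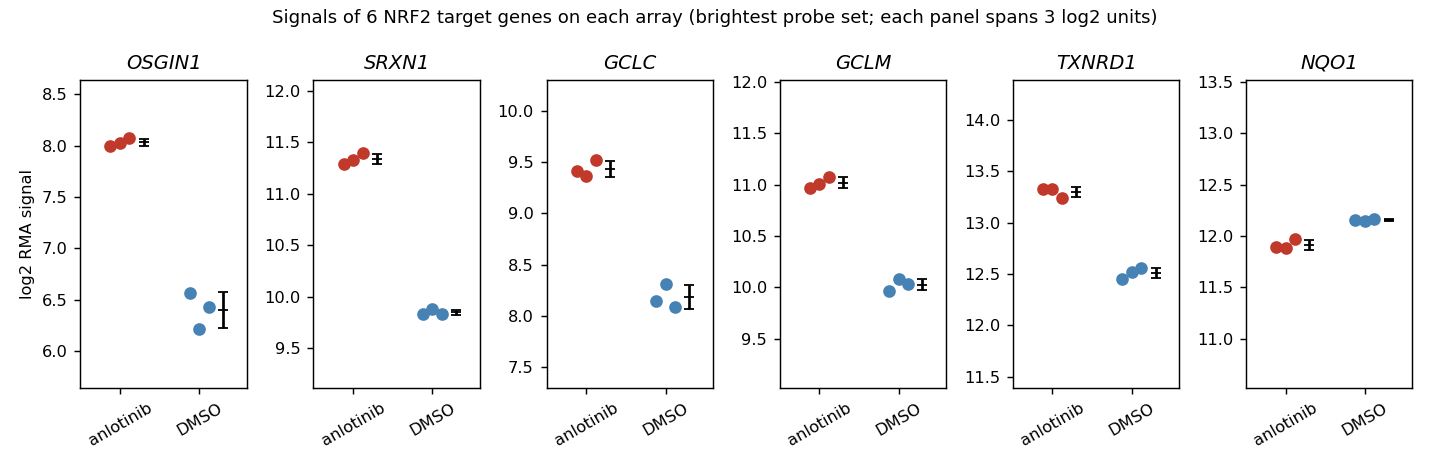
Log2 RMA signal (vertical axis, each panel spanning 3 log2 units around its own centre) of the brightest probe set of OSGIN1, SRXN1, GCLC, GCLM, TXNRD1 and NQO1 on each anlotinib array (red) and each DMSO array (blue), with the mean and SD of each group in black (n = 3). All anlotinib arrays lie above all DMSO arrays in the first 5 panels, and below them for NQO1.

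The genes of the NADPH supply group, not all of which make NADPH themselves, did not rise. PGD, the second NADPH-producing enzyme of the pentose phosphate pathway, had 10.58, 10.57 and 10.64 with anlotinib and 10.78, 10.88 and 10.85 in DMSO. Its anlotinib arrays were all lower, with a difference of −0.24 (SE 0.04, adjusted p = 0.00314, limma) and −0.20 at the other probe set. TALDO1, the transaldolase of the same pathway, had −0.19 (adjusted p = 0.00427, limma) at a bright probe set, while a dim one, with a signal of 4.92 in DMSO, gave 0.35 (adjusted p = 0.0213, limma), so its probe sets disagree in sign. TKT, transketolase, gave 0.01, 0.11 and −0.18, and 0 of these passed the FDR (adjusted p = 0.829, 0.0946 and 0.0611, limma). ME1, the cytosolic malic enzyme that makes NADPH from malate, had 9.60, 9.58 and 9.40 with anlotinib and 9.31, 9.42 and 9.37 in DMSO, a difference of 0.16 in which the groups overlapped (adjusted p = 0.0662, limma), and −0.16 at the other probe set.

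Among the reductases, NQO1 and CBR1 differed in opposite directions. NQO1, which reduces quinones, had 11.89, 11.88 and 11.97 with anlotinib and 12.16, 12.14 and 12.16 in DMSO. Every anlotinib array was lower, with a difference of −0.24 (SE 0.04, adjusted p = 0.00202, limma), or 0.846-fold. Its other probe set gave −0.32 (SE 0.04, adjusted p = 3.7e-04, limma), at 10.66, 10.62 and 10.69 with anlotinib and 10.98, 10.97 and 10.97 in DMSO. The 95% confidence intervals of NQO1, −0.34 to −0.14 and −0.41 to −0.22, lay below 0, whereas those of GCLM and TXNRD1 lay above it. CBR1, a carbonyl reductase that uses NADPH, had 9.65, 9.70 and 9.67 with anlotinib and 9.18, 9.09 and 9.10 in DMSO. This is a difference of 0.55 (SE 0.04, adjusted p = 3.51e-05, limma), and 4 further probe sets gave 0.49 to 0.60, all below the 2-fold limit. A sixth probe set, with a signal of 5.71 in DMSO, gave −0.24 and did not pass the FDR (adjusted p = 0.18, limma).

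The aldo-keto reductases, which turn aldehydes and ketones into alcohols, were near the bottom of the signal range. AKR1B10 had 4.37 to 4.59 with anlotinib and 4.54 to 4.96 in DMSO, AKR1C2 had 4.73 to 5.00 with anlotinib and 4.83 to 5.09 in DMSO at its 2 probe sets, and AKR1C3 had 4.55 to 4.75 with anlotinib and 4.31 to 4.61 in DMSO. The groups overlapped at all 4 probe sets, with log2 fold changes of −0.20 to 0.17, and these 4 were within the lowest 10% of all tested mean signals. The lowest mean of any tested probe set was 4.41, which limits how far a fall could show. The AKR1C genes are near-identical copies whose probes may read each other. AKR1C1, AKR1B1 and ALDH3A1 were read by 0 tested probe sets of their own and were not analysed here.

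Of the detoxification genes, EPHX1, the microsomal epoxide hydrolase, had 7.40, 7.50 and 7.58 with anlotinib and 7.64, 7.77 and 7.56 in DMSO, with overlapping groups (−0.16, adjusted p = 0.0844, limma). UGDH, which makes the UDP-glucuronate for glucuronidation, had 11.56, 11.52 and 11.59 with anlotinib and 11.50, 11.58 and 11.57 in DMSO, a difference of 0.01 with overlap, although a dimmer probe set gave −0.30 (adjusted p = 5.41e-04, limma). OSGIN1, which oxidative stress induces and which slows growth, showed the largest difference of all 26 genes. Its signals were 8.00, 8.03 and 8.07 with anlotinib and 6.56, 6.21 and 6.43 in DMSO, which is 3.09-fold or 1.63 on the log2 scale (SE 0.09, adjusted p = 7.74e-06, limma). A second probe set gave 7.94, 8.08 and 8.39 with anlotinib and 6.38, 6.03 and 6.24 in DMSO, a difference of 1.92 (SE 0.13, adjusted p = 2.29e-05, limma), and the groups were far apart at both. PIR, an iron-containing nuclear protein, had 9.29, 9.35 and 9.44 with anlotinib and 9.29, 9.51 and 9.40 in DMSO, with overlap (−0.04, 95% confidence interval −0.20 to 0.12). TRIM16 and CES1 are read only by probe sets that are also annotated to another gene, which were not used, and this accounts for the last of the 31 genes.

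**Figure D3:**
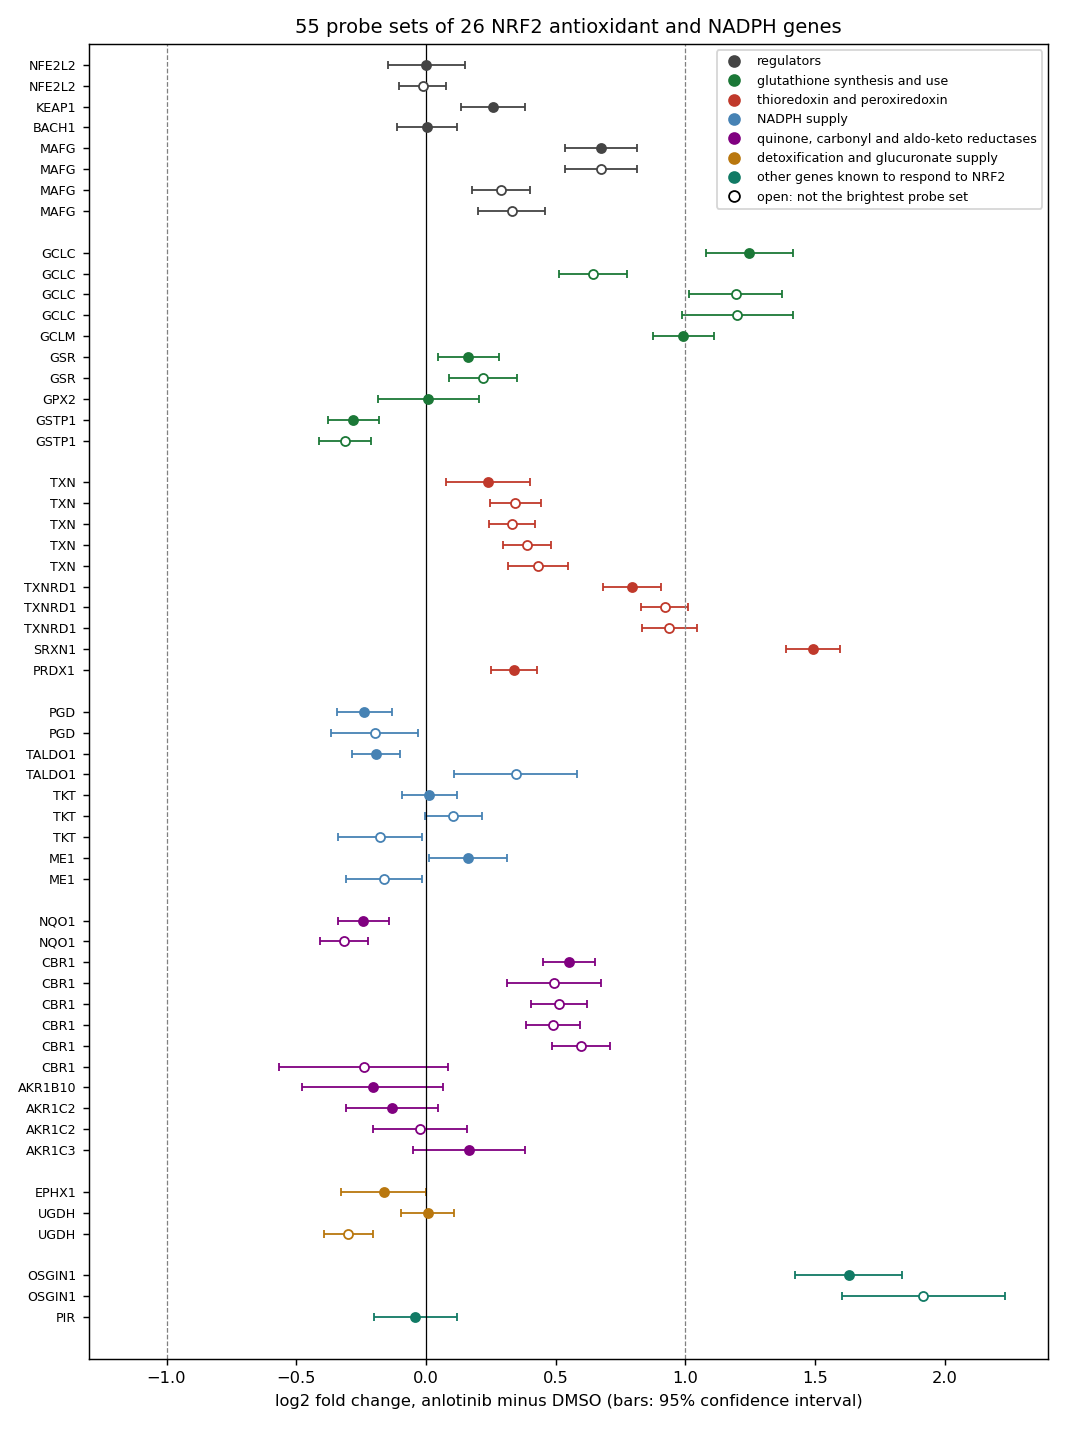
Log2 fold change, anlotinib minus DMSO (horizontal axis), of the 55 probe sets of the 26 genes, grouped by function from the regulators at the top to the other NRF2-responsive genes at the bottom, with 95% confidence intervals from limma (n = 3 arrays per group), filled points for the brightest probe set of a gene and dashed lines at the 2-fold limits. The 6 called probe sets are those of GCLC (3), SRXN1 (1) and OSGIN1 (2), while both probe sets of NQO1 (−0.24 and −0.32) and both of GSTP1 (−0.28 and −0.31) lie below 0 with their whole intervals.

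The promoters of the 31 genes were searched for the core of the antioxidant response element, TGACNNNGC, on both strands. The windows, taken from RefSeq (GRCh38.p14), ran from 250 bases before to 50 after an annotated start, and 26 of the 31 genes had at least 1. Of these 26, 10 had a match (38.5%), and of the 23 that were also measured on the arrays the same 10 (43.5%), beside 16.1% of all genes in the table. Over the windows of all 26, the share was 11 of 35 (31.4%), beside 13.3% of all windows. Matches stood before starts of PGD, GCLM, EPHX1, ME1, GSTP1, TXNRD1, GPX2, KEAP1 and CBR1, and after those of ME1 and PIR. The windows of OSGIN1, SRXN1, GCLC and NQO1 held none, which says only that these letters were not in this stretch. Of 14 matches, 3 (in GSTP1, ME1 and PIR) also contain TGACTCA, the element of AP-1. With those of BACH1 and OSGIN1, where it stood outside a match, 5 of the 35 windows held TGACTCA (14.3%), against 4.95% of all windows. The stretches from 150 bases before to 10 after the start are shown for TXNRD1 and GCLM, which were higher and hold a match, for GSTP1, which was lower and holds one, and for SRXN1 and NQO1, which moved in opposite directions and hold none. Capitals mark the matches. TXNRD1 is at chr12:104215629-104215788 on the plus strand, GCLM at chr1:93909421-93909580 on the minus strand, GSTP1 at chr11:67583662-67583821 on the plus strand, SRXN1 at chr20:653191-653350 on the minus strand and NQO1 at chr16:69726551-69726710 on the minus strand.
TXNRD1: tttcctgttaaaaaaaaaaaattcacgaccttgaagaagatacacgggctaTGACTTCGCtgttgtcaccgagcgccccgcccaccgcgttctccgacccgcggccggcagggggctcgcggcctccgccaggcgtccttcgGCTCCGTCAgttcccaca
GCLM: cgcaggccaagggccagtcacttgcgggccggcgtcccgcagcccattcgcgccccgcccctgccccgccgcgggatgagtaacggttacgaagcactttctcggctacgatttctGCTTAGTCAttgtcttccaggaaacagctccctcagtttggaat
GSTP1: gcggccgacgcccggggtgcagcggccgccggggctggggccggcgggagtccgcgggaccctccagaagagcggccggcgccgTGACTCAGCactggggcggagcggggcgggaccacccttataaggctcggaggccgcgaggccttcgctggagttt
SRXN1: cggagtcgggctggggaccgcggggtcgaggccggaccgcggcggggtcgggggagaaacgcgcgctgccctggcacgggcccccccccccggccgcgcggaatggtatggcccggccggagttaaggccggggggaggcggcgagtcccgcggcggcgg
NQO1: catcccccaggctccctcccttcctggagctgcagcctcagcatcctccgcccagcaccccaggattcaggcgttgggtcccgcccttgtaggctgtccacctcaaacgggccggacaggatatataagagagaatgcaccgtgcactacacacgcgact
In TXNRD1 the matches began 99 and 8 bases before the start, in GCLM 34 bases and in GSTP1 66 bases before it. A match is a description of the letters and not a binding site.

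Of 96 further genes of the pathway, 83 had a tested probe set. At any probe set, 3 rose and 5 fell, against 3.47% and 2.58% of all genes. At the brightest probe set without a fold limit, 22 passed an FDR of 0.05 as higher and 42 as lower, against 25.4% and 29.7% of all genes, with a median log2 fold change of −0.16. Among the 4 measured heme and iron genes, HMOX1, which breaks down heme, rose to 11.81, 11.73 and 11.79 with anlotinib, against 8.79, 8.77 and 8.66 in DMSO (3.04, SE 0.05, adjusted p = 4.83e-07, limma), a larger log2 fold change than any of the 26 genes showed. The others of this list were split, FTL being higher (0.49) and FECH (−0.41) and SLC48A1 (−0.76) lower, all at an FDR under 0.05. The list had a median of 0.04. Among 11 further regulators of NRF2, MAFF, another small MAF protein, rose to 8.90, 8.79 and 8.93 with anlotinib, against 7.18, 7.10 and 7.18 in DMSO (1.72, SE 0.05). SQSTM1, an autophagy receptor that can sequester KEAP1, rose to 14.04, 14.12 and 13.99 with anlotinib, against 12.70, 12.79 and 12.84 in DMSO (1.27, SE 0.05), and by 1.23 to 2.02 at its other probe sets.

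The called genes of the remaining lists fell. Among 15 further genes of NADPH supply and the pentose phosphate pathway, not all of which make NADPH themselves, IDH2 was called. This mitochondrial isocitrate dehydrogenase, which makes NADPH, fell to 8.82, 8.72 and 8.65 with anlotinib, against 10.45, 10.56 and 10.59 in DMSO (−1.80, SE 0.06, adjusted p = 1.67e-06, limma). The median of that list was −0.28. Among 23 further glutathione genes, GSTA4, a transferase for lipid aldehydes, fell to 7.47, 7.56 and 7.70 with anlotinib, against 9.08, 9.06 and 8.98 in DMSO (−1.46, SE 0.07), with a median of −0.23 for the list. Among 15 further thioredoxin and reactive oxygen genes, TXNIP, which binds and inhibits thioredoxin, fell to 9.15, 9.25 and 9.31 with anlotinib, against 10.43, 10.53 and 10.45 in DMSO (−1.24, SE 0.05). Among 15 further reductases and detoxification enzymes, AKR7A2, an aflatoxin aldehyde reductase, fell to 10.27, 10.17 and 10.27 with anlotinib, against 11.30, 11.31 and 11.27 in DMSO (−1.06, SE 0.04), and CBR4 fell at a dimmer probe set (−1.32) but not at its brightest (−0.58).

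**Figure D4:**
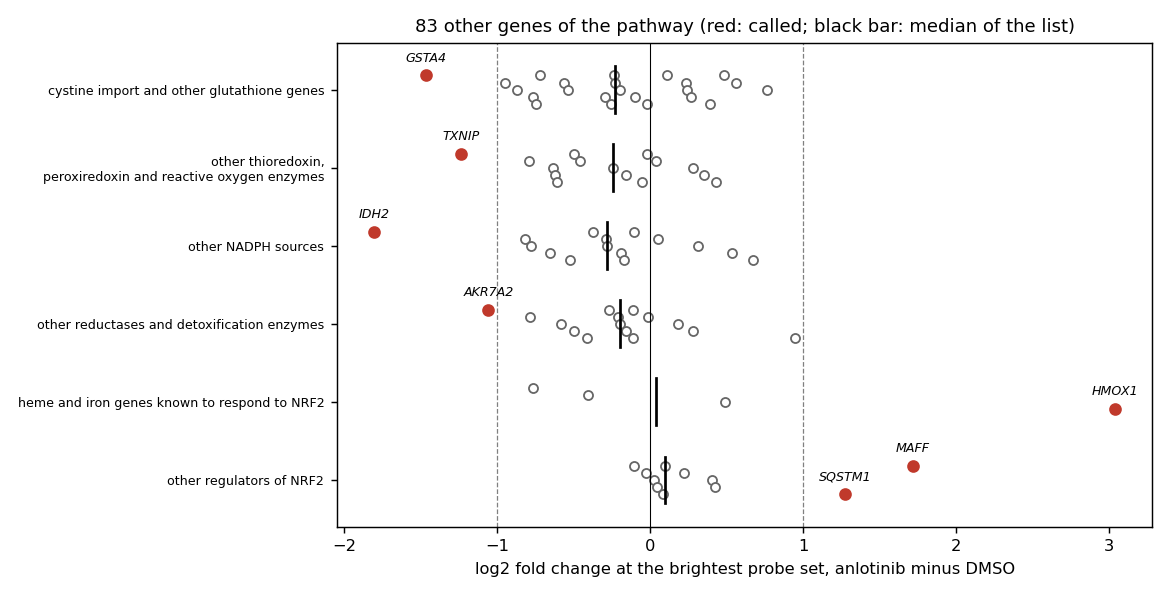
Log2 fold change at the brightest probe set (horizontal axis, anlotinib minus DMSO, dashed lines at the 2-fold limits) of 83 further pathway genes in 6 lists, with called genes in red and the median of each list as a black bar. HMOX1, MAFF and SQSTM1 lie beyond the upper limit, and IDH2, GSTA4, TXNIP and AKR7A2 beyond the lower one.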

How the data were processed

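Total RNA of 3 anlotinib and 3 DMSO samples of PANC-1 cells was read on Affymetrix PrimeView arrays, and samples were grouped by the labels. The values are log2 signals that the authors made with RMA, which corrects background, equalizes the arrays and condenses each probe set to 1 value. Their methods state that probe sets were removed if they were in the lowest 20% of signals or varied by over 25% within a class. The scale of that variation filter is not given. The deposited table holds 39219 probe sets, to which a variation filter was applied again here. The genome build and probe sequences are not given in the sources used here. Control probe sets (73) and probe sets with a coefficient of variation over 25% on the linear scale within a group (83) were left out, which kept 39063, and 0 probe sets of the 26 genes were lost. All 39063 entered 1 linear model with moderated variances (limma 3.58.1, R 4.3.3), with Benjamini-Hochberg adjustment over all of them and the paper's limits of 2-fold and an FDR under 0.05. Genes were taken from the array annotation, and the entrez identifier matched the RefSeq gene table for all 26 genes. Probe sets annotated to several genes (1429 tested) or none (1776) entered the fit only.

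The genes and lists were chosen with earlier results of these data known, so their counts are descriptions to be read beside the share of all probe sets or genes called. Values on each array are given for called genes, for the regulators, for GCLM, TXNRD1 and NQO1, and for the largest difference in each direction within a function. Arrays carry no counts, and the number of arrays limits the precision. In simulated data for this comparison, drawn over 39063 probe sets, a small part of the probe sets was shifted. Recovered were 50 of 50 shifted by 1.4, 49 of 50 by 1.5, 50 of 50 by 2 and 50 of 50 by 3 log2 units, with 0 false calls. Every shift was larger than the 2-fold limit. The simulation therefore checks only that the fit recovers large shifts, and cannot show how differences near or below the limit were called. As alternatives, the CV filter was dropped or moved to log2 values, the dimmest 40% of signals were removed, arrays were quantile normalized again or centred, and the fold limit was set to 1.5 or replaced by limma's treat. Further fits used trended robust variances or a block for replicate number, left out probe sets that may cross-hybridize, described a gene by the median over its probe sets, or left out each array.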

Additional observations from a re-analysis of the deposited data

How the results depend on the processing

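Over 16 alternative fits, 0 calls of the 6 called probe sets were lost where they were tested, and 0 of the 26 genes fell. SRXN1 has only 1 probe set, marked as possibly cross-hybridizing, and had no value where such probe sets were left out. With the limit of 1.5-fold, 14 probe sets of 7 genes were called higher (GCLC, OSGIN1 and SRXN1 with GCLM, TXNRD1, MAFG and CBR1), where 8.34% of all probe sets were, and with limma's treat 10 probe sets of 5 genes, where 4.04% were. The 14 count the repeated measurement of MAFG under both of its names. CBR1 enters them by a dimmer probe set (1.51-fold), while its brightest, at 1.47-fold, was not called. With 1 array left out the counts were 6 to 7 probe sets and 3 to 4 genes higher, 0 lower, and the median log2 fold change of the 26 genes was 0.06 to 0.11. It was 0.16 without the lowest 40% of signals and 0.16 without AKR1B10, AKR1C2 and AKR1C3, a setting chosen after seeing the data. Single values were followed for 28 of the 55 probe sets, not for the further pathway genes, and 23 of the 28 kept their sign under every alternative in which they were tested. The others had differences near 0. Centring the arrays gave −0.0096 for BACH1, −0.012 for NFE2L2 and −0.0066 for UGDH, a second quantile normalization gave −0.0020 for UGDH, and leaving out arrays gave −0.0295 to 0.0429 for BACH1, −0.064 to 0.0451 and −0.024 to 0.0014 for the 2 probe sets of NFE2L2, −0.0194 to 0.024 for UGDH and −0.0946 to 0.0147 for PIR. The same replicate numbers occur in both groups, but the deviations of same-numbered arrays correlated with r of 0.167, 0.00625 and −0.145, so the numbers were not read as pairs, and with the replicate number as a block 6 probe sets of 3 genes were again called.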

Other observations

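Some further pathway genes below the 2-fold limit are given here, chosen after their values were seen. GPX4, which reduces lipid peroxides with glutathione, had log2 signals of 12.51 ± 0.04 with anlotinib and 13.46 ± 0.03 in DMSO (SD, n = 3 each), a log2 fold change of −0.95 (adjusted p = 3.83e-06, limma), and −0.98 at a second probe set. CAT, which breaks down hydrogen peroxide, had 11.30 ± 0.02 with anlotinib and 12.09 ± 0.02 in DMSO (SD, n = 3 each), a log2 fold change of −0.79. BLVRB, a reductase of the heme breakdown pathway, had 10.70 ± 0.10 with anlotinib and 9.75 ± 0.02 in DMSO (SD, n = 3 each), a log2 fold change of 0.94. IDH1, the cytosolic counterpart of IDH2, was higher (0.67), while IDH2 fell.

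The probe sets of SLC7A11, the cystine importer that feeds glutathione synthesis, disagreed. The brightest gave −0.57 (adjusted p = 3.17e-05, limma), another −0.21 (adjusted p = 0.00773, limma), and the dimmest 0.33 (adjusted p = 3.14e-04, limma), each with an SD of at most 0.07 within a group. Which transcripts these probe sets read was not tested.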
